A study of Macaca nemestrina with 15 samples.

Results

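Restriction factors are host proteins with which a cell blocks retroviruses at separate steps of their replication. The factors examined in the PBMC transcriptomes of pig-tailed macaques (*Macaca nemestrina*) were *TRIM5*, *TRIM22*, *BST2*, *MX2*, *SERINC5*, *ZC3HAV1* and every feature whose name starts with *APOBEC3*, chosen by name. Of the 28865 features listed, 9 matched: *MX2*, *BST2*, *TRIM22*, *SERINC5*, *ZC3HAV1*, *APOBEC3C*, *APOBEC3D*, *APOBEC3G* and *APOBEC3H*. All 9 were among the 12880 features left by the filter on low counts, with at least 111 counts per library. *TRIM5*, the capsid sensor that pig-tailed macaques carry in a form fused to cyclophilin A, was not analysed here, nor were *APOBEC3A*, *APOBEC3B* and *APOBEC3F*.

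RNA came from the PBMCs of 5 female animals, each sampled before treatment (labelled pre-treatment and Control) and at times labelled week 12 and week 18. By the study's account the animals received weekly oral islatravir (ISL, 30 mg/kg, 12 doses). It places the week 12 sample under treatment and the third sample after dosing had ended. ISL is a nucleoside inhibitor of HIV reverse transcriptase that blocks translocation of the enzyme. Every animal received the same treatment and no untreated animals were sampled, so treatment and elapsed time cannot be told apart. Dates in the library names put the second sample 56 or 57 days and the third 84 days after the first, which does not match the names week 12 and week 18, so the time since the last dose is uncertain. The names are kept here as the labels give them. Libraries held 5610597 to 10379572 counts on genes, and the week 12 and week 18 libraries of animal Z15303 were the shallowest (5610597 and 5886482). Markers of T cells, NK cells, monocytes and B cells were detected at every time point, and none of the listed markers with a row was at 0 in every library.

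The factors differ in how cells regulate them. *MX2*, *BST2* and *TRIM22* are induced by type I interferon and are grouped here as interferon-induced. *SERINC5*, *ZC3HAV1* and the APOBEC3 cytidine deaminases are made by resting lymphocytes without interferon and are grouped as constitutive, although interferon can raise some of them. MX2 binds the incoming capsid and hinders nuclear import, BST2 (tetherin) holds budding virions at the cell surface, and TRIM22 is a RING-finger protein that reduces viral transcription. SERINC5 is a membrane protein that lowers the infectivity of virions, and ZC3HAV1 (ZAP) binds CpG-rich viral RNA. The APOBEC3 enzymes enter virions and deaminate cytidines in the nascent viral DNA. The lentiviral proteins Nef and Vif counter SERINC5 and the APOBEC3 enzymes, respectively.

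No restriction factor passed an adjusted *p* of 0.05 in any of the 3 comparisons, and by edgeR without an animal block neither did any other tested feature. These counts therefore do not set the factors apart from other genes. At week 12 vs. pre-treatment, 0 of 9 members passed an adjusted *p* of 0.05 by edgeR's quasi-likelihood test with time point as the only term, where 0% of all tested features did. The same held at week 18 vs. pre-treatment (0 of 9 members, 0% of features) and at week 18 vs. week 12 (0 of 9 members, 0% of features). Before adjustment, 0 of 9 members had *p* under 0.05, against 1.61%, 1.69% and 0.505% of all features in the 3 comparisons in that order. DESeq2 also gave 0 members in each comparison, adjusted or not.

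With the animal as a block, which uses the change within each animal, the result for the members was the same. At week 12 and at week 18 vs. pre-treatment 0 of 9 members passed, against 0.00776% of features in each, and 0 of 9 passed between week 18 and week 12, against 0%. Unadjusted *p* under 0.05 was reached by 0 of 9 members in all 3 blocked comparisons, and by 4.69%, 5.85% and 2.17% of features. In DESeq2 with the same block, 0 of 9 members passed an adjusted *p* of 0.05, against 23, 50 and 8 of 20732 features. None of the 9 members moved in the same direction in all 5 animals, which 5.68%, 6.53% and 5.86% of features did. The values of the groups compared overlapped for all 9 members in each comparison, and they did not overlap for 0.28%, 0.334% and 0.101% of features.

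The blocked intervals set the size of change that the data leave possible. Over the 9 members, the 95% confidence intervals of the fold change ran from 0.670 to 1.44 at week 12 vs. pre-treatment and from 0.639 to 1.33 at week 18 vs. pre-treatment. Between week 12 and week 18 they ran from 0.733 to 1.32. Without the block they ran from 0.578 to 1.79 and from 0.560 to 1.81 at week 12 and week 18 vs. pre-treatment, so a 2-fold difference lay outside the interval of every member in either fit. Since PBMCs are a mixture, fewer cells of a type and less RNA per cell cannot be told apart in any of these values.

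**Figure D1:**
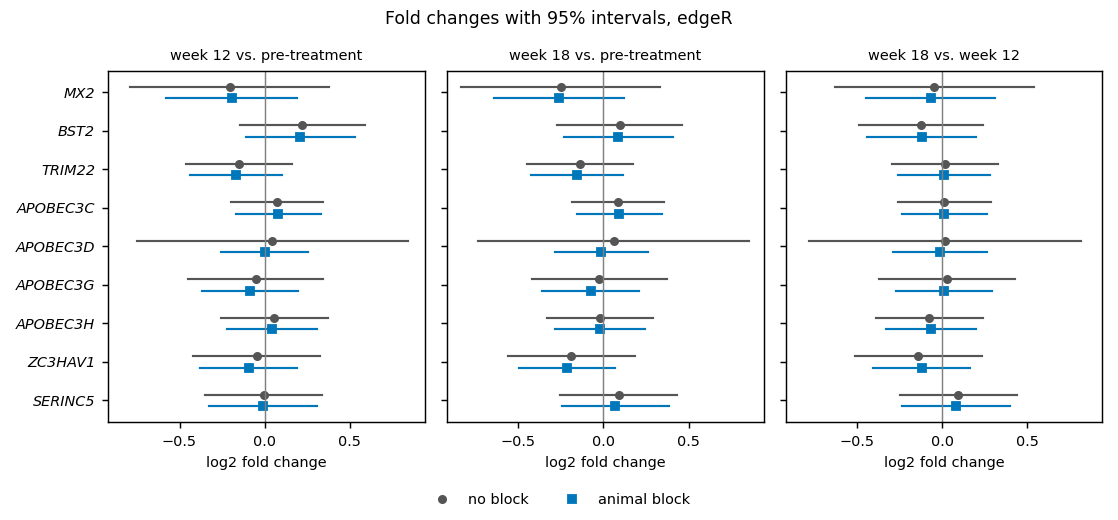
Log2 fold change of each factor (x axis) in the 3 comparisons by edgeR, with 95% confidence intervals, without (circles) and with (squares) the animal as a block, from 5 animals. Every interval includes 0, and the interval of *APOBEC3D* is much narrower with the block (SE of 0.12 against 0.38 at week 12).

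In the following, values are in CPM, read counts scaled to library size with TMM factors, and are given per library in the order of animals Z15228, Z13076, Z15339, Z15303 and Z15408. They are not corrected for gene length and are compared only within a gene. Changes within an animal are differences of log2 CPM.

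*MX2* stood at 103.8, 222, 119.6, 254 and 177 CPM before treatment, at 123, 184, 132, 109 and 212 CPM at week 12, and at 111, 214, 119, 101 and 191 CPM at week 18. Animal Z15303 was the highest of the 5 before treatment and the lowest at both later times, while the other 4 animals stayed near their own starting level. The mean was 175 ± 64.3, 152 ± 44.3 and 147 ± 51.7 CPM (SD, n = 5) at the 3 time points. The log2 fold change was −0.21 (SE 0.28, adjusted *p* = 0.99997) at week 12 and −0.25 (SE 0.28, adjusted *p* = 0.999979) at week 18 vs. pre-treatment by edgeR. These negative values rested on Z15303, in which *MX2* at week 12 was 0.429 times its pre-treatment level, a log2 change of −1.22, and at week 18 the log2 change was −1.33. The other animals had log2 changes of −0.27 to 0.26 at week 12 and −0.05 to 0.11 at week 18. Without Z15303 the log2 fold change of *MX2* turned positive, to 0.07 at week 12 and 0.03 at week 18.

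*BST2* measured 271, 338, 214, 282 and 209.6 CPM before treatment, 212, 287, 299, 353 and 382 CPM at week 12, and 230.2, 259, 310.1, 348 and 257 CPM at week 18. Here Z15303 was not at the low end: its 2 later values were above its first. The means were 263 ± 53.2, 306 ± 65.7 and 280.9 ± 47.1 CPM (SD, n = 5). The log2 fold change at week 12 was 0.22 (SE 0.17, unadjusted *p* = 0.22 and adjusted *p* = 0.99997 by edgeR), the smallest *p* of any member in that comparison, and 0.10 (SE 0.17) at week 18. The week 12 value depended on single animals: without Z15408 it was 0.06 (0.04 with the block), and without Z15228 or Z13076 it was 0.35 in each case. With the block and without Z15228 or Z13076 it was 0.36 and 0.33, with unadjusted *p* of 0.046 and 0.0499 (adjusted *p* = 0.83 and 0.513 by edgeR). The animals also differed by the date in the library names, which the labels do not call a sampling date. In the 3 animals whose library names share dates (Z15339, Z15303 and Z15408) *BST2* was higher at week 12, with log2 changes of 0.48, 0.32 and 0.86. In the 2 animals with dates of their own (Z15228 and Z13076) it was lower, by −0.36 and −0.24. The mean changes of *BST2* in these sets were 0.56 and −0.30 at week 12, and 0.38 and −0.31 at week 18. At week 12 *TRIM22*, *ZC3HAV1* and *APOBEC3D* split the other way, with every animal on shared dates below both others. Their mean changes were −0.33, −0.36 and −0.19 on shared dates and 0.12, 0.28 and 0.25 on own dates. The share of all features that split by date in this way was not computed at week 12 or week 18. The splits therefore cannot be set against other genes. Date and animal cannot be told apart here, because no animal had dates of both kinds, and the split was not tested.

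*TRIM22* measured 285, 287, 328, 365 and 386 CPM before treatment, 306, 314, 309, 225 and 330.04 CPM at week 12, and 327, 317, 301, 209.6 and 347 CPM at week 18. Again Z15303 went from the upper end to the lowest value, well below the other 4 animals at week 12. The log2 changes of Z15303 were −0.69 and −0.80, while the other animals lay between −0.23 and 0.13 at week 12 and between −0.15 and 0.20 at week 18. Both animals with dates of their own were higher than before treatment (0.10 and 0.13 at week 12, 0.20 and 0.14 at week 18). The 3 with shared dates were lower at both times. The means were 330.1 ± 45.4, 297 ± 41.1 and 300.3 ± 53.3 CPM (SD, n = 5), and the log2 fold changes were −0.15 (SE 0.15) and −0.14 (SE 0.15). Without Z15303 they were −0.02 and 0.01.

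**Figure D2:**
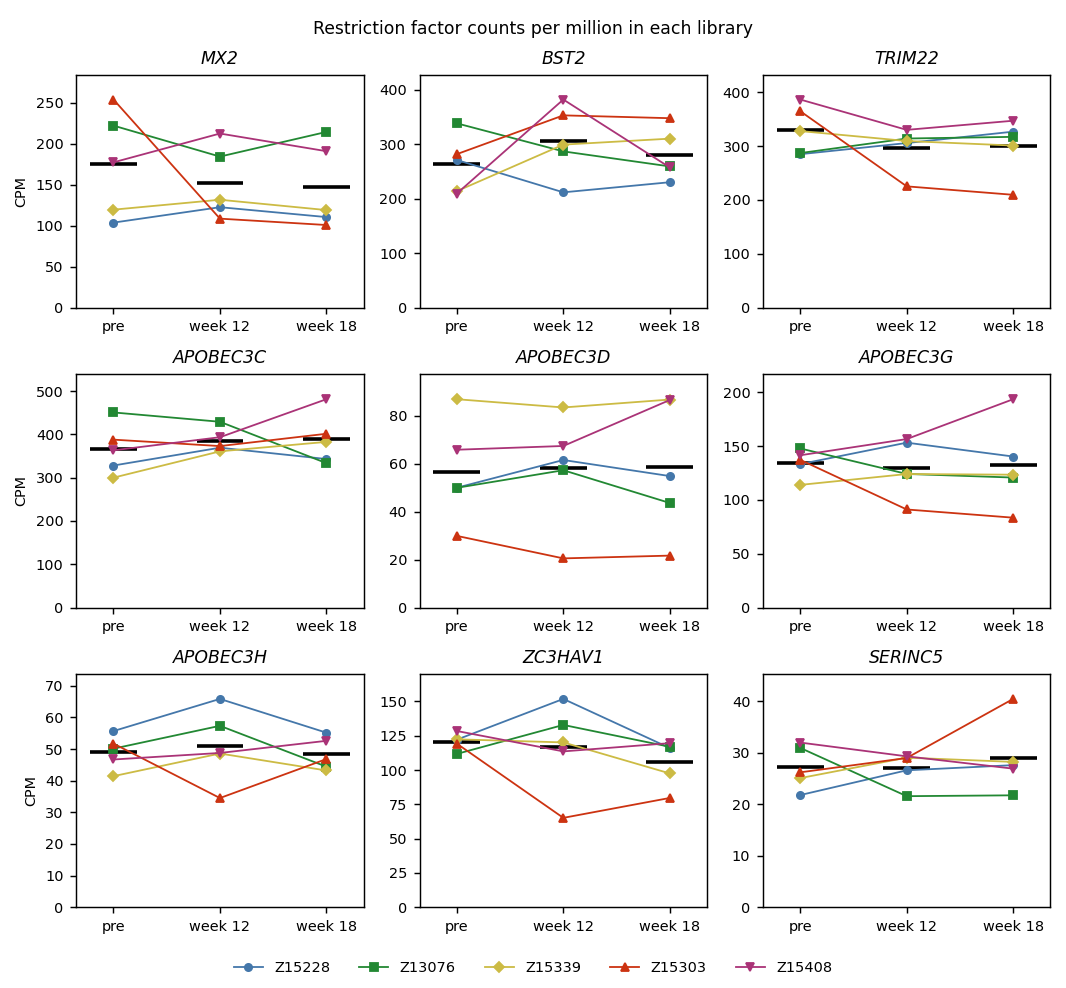
CPM of the 9 factors (y axis, from 0, a scale per panel) in each of the 15 libraries at the 3 time points (x axis), with a line per animal and a black bar at the mean of the 5 animals. Z15303 runs from the top to the bottom of *MX2* (254 to 101 CPM) and lies lowest in *APOBEC3D* at every time point (20.5 to 29.9 CPM).

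*ZC3HAV1* was close to even across animals before treatment, at 122, 112, 122, 119 and 128 CPM. At week 12 it measured 152, 133, 120.1, 65.1 and 114 CPM, and at week 18 it measured 116, 117, 97.5, 79.6 and 119.6 CPM. The low values at both later times were those of Z15303, with log2 changes of −0.87 and −0.58. The mean of 121 ± 6.06 CPM before treatment was followed by 117 ± 32.3 and 106 ± 17.1 CPM (SD, n = 5). *ZC3HAV1* was lower than before treatment in 4 of the 5 animals at week 18. The log2 fold change there was −0.19 (SE 0.18) and, with the block, −0.21 (SE 0.13, unadjusted *p* = 0.129, adjusted *p* = 0.887 by edgeR). That was the smallest *p* of any member at week 18, and without Z15303 the log2 fold change was −0.10 in either fit (unadjusted *p* = 0.394 with the block by edgeR). At week 12 the log2 fold change was −0.05 (SE 0.18), and without Z15303 it was 0.11.

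*SERINC5* was low in every library, at 21.8, 30.9, 25.1, 26.2 and 32.0 CPM before treatment, 26.6, 21.6, 29.0, 29.0 and 29.3 CPM at week 12, and 27.6, 21.7, 28.2, 40.4 and 26.9 CPM at week 18. The animals crossed rather than moved together, and the single value above the rest at week 18 was that of Z15303, with a log2 change of 0.62. The means were 27.2 ± 4.23, 27.1 ± 3.28 and 29.0 ± 6.91 CPM (SD, n = 5). The log2 fold changes were −0.01 (SE 0.16) at week 12 and 0.09 (SE 0.16) at week 18.

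The 4 APOBEC3 genes are paralogs that lie side by side in primates, and reads that fit more than 1 of them may be missing from the counts, so their values are uncertain to that extent. *APOBEC3G*, the best-known Vif target, measured 133, 148, 114, 137 and 142 CPM before treatment, 153, 124, 124, 91.1 and 157 CPM at week 12, and 140.4, 121, 123, 83.5 and 194 CPM at week 18. The group widened with time, with Z15303 going down and Z15408 going up. The means were 135 ± 12.8, 129.9 ± 26.6 and 132 ± 40.04 CPM (SD, n = 5), and the difference in spread was not tested. The log2 fold change was −0.05 (SE 0.19) at week 12 and −0.03 (SE 0.19) at week 18, and without Z15303 it was 0.07 and 0.12.

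*APOBEC3H* measured 55.7, 50.1, 41.4, 51.7 and 46.7 CPM before treatment, 65.8, 57.3, 48.6, 34.5 and 48.8 CPM at week 12, and 55.2, 44.4, 43.2, 46.8 and 52.6 CPM at week 18. At week 12 the other 4 animals were higher than before treatment by 0.06 to 0.24 on the log2 scale and Z15303 alone was lower (−0.58). The log2 fold change was 0.06 (SE 0.15) with all 5 animals and 0.19 without Z15303 (unadjusted *p* = 0.186 by edgeR). At week 18 it was −0.02 (SE 0.15).

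*APOBEC3C*, another deaminase of the family, differed little on average. It measured 328, 451, 300.1, 388 and 363 CPM before treatment, 369, 429, 361, 373 and 393.5 CPM at week 12, and 343, 334, 383, 401.5 and 481 CPM at week 18. Its means of 366 ± 58.0, 385 ± 27.4 and 388 ± 58.9 CPM (SD, n = 5) differed by less than the spread between animals. The log2 fold changes were 0.07 (SE 0.13) and 0.09 (SE 0.13), and the change in Z15303 was close to 0 at both times (−0.06 and 0.05).

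*APOBEC3D* differed far more between animals than between time points. It measured 49.9, 49.9, 86.8, 29.9 and 65.7 CPM before treatment, 61.5, 57.2, 83.4, 20.5 and 67.3 CPM at week 12, and 54.8, 43.6, 86.7, 21.6 and 86.5 CPM at week 18. Z15303 was the lowest and Z15339 the highest at all 3 time points. Its log2 fold changes were 0.04 (SE 0.38) and 0.06 (SE 0.38), and with the block −0.00031 (SE 0.12) and −0.01 (SE 0.13).

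**Figure D3:**
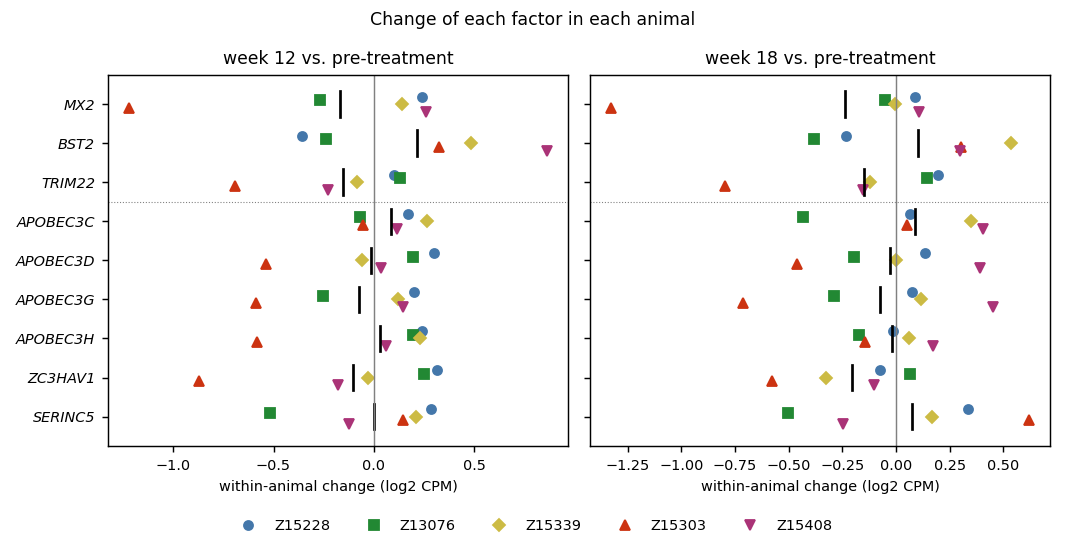
Change of log2 CPM from pre-treatment within each animal (x axis, 1 symbol per animal) for each factor, at week 12 (left) and week 18 (right), with a black bar at the mean of the 5 animals; the dotted line parts interferon-induced (above) from constitutive factors. Z15303 lies at the far left for *MX2* (−1.22 and −1.33), *TRIM22*, *ZC3HAV1* and *APOBEC3G*, but not for *BST2*, *APOBEC3C* or *SERINC5*.

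A test of the animal term across all features, chosen after the values were seen, gave 2 of 9 members at an adjusted *p* of 0.05 (edgeR quasi-likelihood F test with time point in the model), against 30.9% of all features. *APOBEC3D* was the first (adjusted *p* = 7.08e-06). Its mean over the 3 time points was 24.0 CPM in Z15303 (range 20.5 to 29.9), 50.2 CPM in Z13076, the next lowest, and 85.6 CPM in Z15339 (83.4 to 86.8), 3.57 times the mean of Z15303. The SD of log2 CPM was 0.70 between animals and 0.22 within them. By another measure, 94.0% of the total sum of squares of *APOBEC3D* lay between animals, against a median of 51.9% over all features. *MX2* was the second (adjusted *p* = 0.0215), with 60.1% of its sum of squares between animals and a mean of 112 CPM in Z15228 and 207 CPM in Z13076. The call of *MX2* was lost when Z15228, Z15339 or Z15408 was left out (adjusted *p* = 0.0805, 0.0558 and 0.0523), and that of *APOBEC3D* held with each animal left out, at 0.00478 without Z15303. *APOBEC3G* was just short of the threshold (adjusted *p* = 0.0504), *ZC3HAV1* was at 0.111, and the other 5 members were at 0.207 to 0.469.

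**Figure D4:**
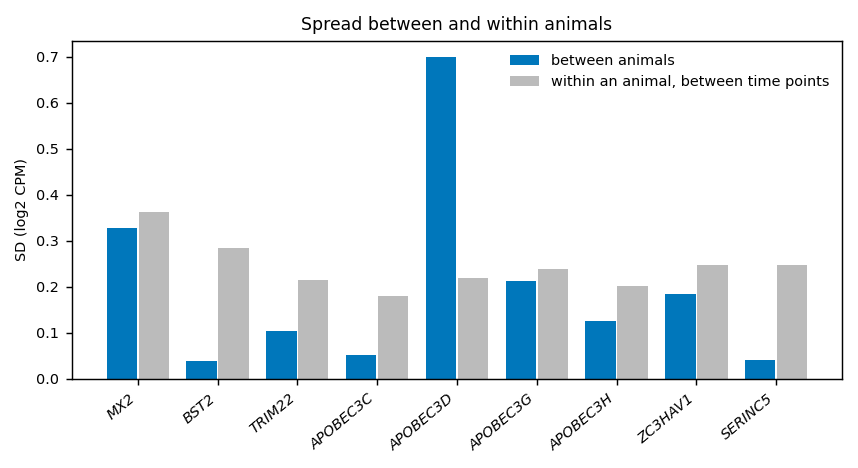
SD of log2 CPM (y axis, from 0) of each factor between the 5 animals (blue) and within an animal between its 3 time points (grey). *APOBEC3D* alone has a between-animal SD (0.70) above its within-animal SD (0.22).

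The medians of the interferon-induced and the constitutive factors were both near 0, and no test was made between these small classes. The median log2 fold change of the 3 interferon-induced factors was −0.15 at week 12 and −0.14 at week 18 vs. pre-treatment. That of the 6 constitutive factors was 0.02 and 0.02, and that of all tested features 0.00 and 0.00. Between week 12 and week 18 the medians were −0.05 for the interferon-induced and 0.01 for the constitutive factors. By animal, the medians of the interferon-induced factors at week 12 were 0.10, −0.24, 0.14, −0.69 and 0.26, and those of the constitutive factors 0.26, 0.06, 0.17, −0.56 and 0.05. At week 18 they were 0.09, −0.05, −0.01, −0.80 and 0.11 for the interferon-induced, and 0.07, −0.24, 0.09, −0.30 and 0.28 for the constitutive factors. In both classes the lowest median at both times was that of Z15303, and in the other 4 animals the classes overlapped. Without Z15303 the median of the interferon-induced factors was 0.07 and 0.03, and that of the constitutive factors 0.11 and 0.06.

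**Figure D5:**
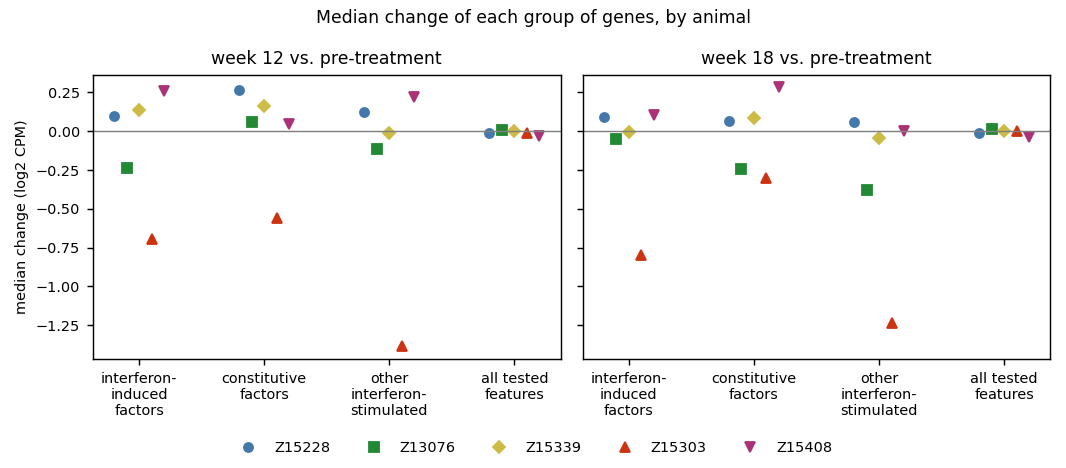
Median within-animal change of log2 CPM from pre-treatment (y axis) of the 3 interferon-induced factors, the 6 constitutive factors, the 38 other interferon-stimulated genes and all 12880 tested features, with 1 symbol per animal, at week 12 (left) and week 18 (right). Z15303 lies lowest in the first 3 sets (other interferon-stimulated genes −1.39 and −1.24) and near 0 over all features.

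Interferon-stimulated genes outside the members were lower in the same animal. Of 42 listed genes 38 were tested, and their median log2 fold change was −0.25 at week 12 and −0.34 at week 18 vs. pre-treatment. By animal the medians were 0.13, −0.11, −0.01, −1.39 and 0.22 at week 12 and 0.06, −0.38, −0.04, −1.24 and 0.00 at week 18. The low medians were those of Z15303, whose summed CPM over the list was the highest of the 5 before treatment (5638, against a median of 2749) and among the lowest afterwards (2332 and 2435). The later libraries of Z15303 were also the shallowest. The part of either in the values of *MX2* and *TRIM22* was not tested.

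No gene of this list passed an adjusted *p* of 0.05 in any comparison by edgeR, with or without the block. At week 12, 0 of 38 genes had an unadjusted *p* under 0.05 without the block, and *STAT2*, a transcription factor of the interferon response, had one with it (log2 fold change −0.24, lower in 4 of 5 animals). Of all tested features, 1.61% had one without the block and 4.69% with it. At week 18, 3 of 38 had one without the block, against 1.69% of all features. They were *IFIT3* (−0.78), *HERC5* (−1.15) and *XAF1* (−0.76), all with negative log2 fold changes. With the block there were 7, against 5.85% of all features. These were again all negative, among them *HERC5*, *XAF1*, *OASL*, *CMPK2*, *STAT2* and *PARP9*. The largest of these was *HERC5*, the ligase that attaches ISG15 to proteins, at −1.15 (SE 0.43, unadjusted *p* = 0.0155, adjusted *p* = 0.999979 by edgeR) and −0.94 with the block (unadjusted *p* = 0.00542, adjusted *p* = 0.559). It was lower in 4 of the 5. Only *STAT2* of the 7 was lower in all 5 animals (−0.33 with the block, unadjusted *p* = 0.0066). Over all features, 6.53% moved in the same direction in all 5 animals. Between week 12 and week 18, 0 of 38 had an unadjusted *p* under 0.05 in either fit. Of all features, 0.505% had one without the block and 2.17% with it. The largest differences were *HERC5* (−0.47) and *CMPK2* (−0.41).

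Other restriction factors and their cofactors also had small medians, of −0.08, −0.07 and −0.08 in the 3 comparisons over 24 tested of 32 listed genes, and 0 passed an adjusted *p* of 0.05. *MX1*, the cytoplasmic relative of *MX2*, had a log2 fold change of −0.78 (SE 0.45) at week 12 and −0.93 (SE 0.46) at week 18, with log2 changes of −2.27 and −2.20 in Z15303. *MARCH1*, a membrane-bound ubiquitin ligase, was lower at week 12 in all 5 animals (log2 fold change −0.41 with the block, unadjusted *p* = 0.00874, adjusted *p* = 0.732 by edgeR). With the block 1 of 24 genes had an unadjusted *p* under 0.05 there, against 4.69% of all features. Of all features, 5.68% moved in the same direction in all 5 animals. At week 18 *TRIM25*, the ubiquitin ligase that works with ZAP and RIG-I, was lower in all 5 animals, with log2 changes of −0.62, −0.21, −0.09, −0.70 and −0.58. Its log2 fold change was −0.44 (SE 0.12) with the block (unadjusted *p* = 0.0018, adjusted *p* = 0.374 by edgeR). It was the only gene of the list that also had an unadjusted *p* under 0.05 in edgeR's fit without the block (0.0115, adjusted *p* = 0.999979). *KHNYN*, a further cofactor of ZAP, was lower in all 5 animals too (−0.31, unadjusted *p* = 0.0401 with the block). *CNP* (−0.25) and *FAM208A* (−0.28), a subunit of the HUSH silencing complex, were lower in 4 of 5. At week 18, 4 of 24 genes had an unadjusted *p* under 0.05 with the block, against 5.85% of all features. Without it 1 of 24 did, against 1.69%. The same direction in all 5 animals was found for 6.53% of all features. Between week 12 and week 18 the largest differences were *KHNYN* (−0.24) and *MARCH1* (0.22). *SAMHD1*, which depletes the nucleotides used by reverse transcriptase, had log2 fold changes of −0.17 (SE 0.13) and −0.14 (SE 0.13).

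Host factors that retroviruses use showed no shift. Over 15 tested of 16 listed genes the medians were 0.03, −0.02 and −0.02, and 0 had an unadjusted *p* under 0.05 in either fit of any comparison. Of all features, 0.505% to 5.85% had one, depending on the fit and comparison. The receptor *CD4* had a log2 fold change of 0.22 (SE 0.18) at week 12, and *CCNT1*, the cyclin that binds the viral Tat protein, had 0.22 (SE 0.29) at week 18. Between week 12 and week 18 the largest were those of the chemokine receptor *CXCR4*, −0.30 (SE 0.16), and of the nuclear pore gene *RANBP2*, −0.18 (SE 0.14).

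Markers of the cell types in PBMCs were followed beside the factors. All 7 tested B-cell markers had negative log2 fold changes, with a median of −0.87 at week 12 and −1.05 at week 18 vs. pre-treatment, and all 7 had an unadjusted *p* under 0.05 with the block in both, though 0 passed an adjusted *p* of 0.05. Of all features, 4.69% at week 12 and 5.85% at week 18 had an unadjusted *p* under 0.05 with the block. The summed CPM of the B-cell markers ranged from 249 to 1047 before treatment, 142 to 528 at week 12 and 184 to 438 at week 18. Those of T-cell markers ranged from 2283 to 3396, 2764 to 3748 and 2862 to 3116, and those of NK-cell markers from 1463 to 3467, 1873 to 4455 and 1912 to 3515. The members are expressed in several of these cells. At week 12 the median log2 changes of the NK-cell markers by animal were 0.12, −0.17, 0.38, −0.03 and 0.59, beside 0.22, 0.06, 0.18, −0.56 and 0.09 for the 4 APOBEC3 genes. At week 18 those of the NK-cell markers were −0.10, −0.46, 0.13, −0.06 and 0.41, beside 0.07, −0.24, 0.09, −0.30 and 0.40 for the APOBEC3 genes. At week 12 the sets lay far apart in Z15303 and Z15408. Platelet markers were highest in Z15303 at each time point (6748, 8117 and 9770 CPM in sum). The part of these markers in the members' values was not tested.

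After centring log2 CPM within each animal, the 4 APOBEC3 genes varied together over the 15 libraries. Pearson's r over their 6 pairs ranged from 0.50 to 0.80, and from 0.50 to 0.84 over the 12 libraries without Z15303. Some other pairs of members were as high over the 15 libraries: *MX2* with *APOBEC3G* (0.83), and *ZC3HAV1* with *TRIM22* (0.76) and *APOBEC3H* (0.75). Without Z15303 these had r of 0.46, 0.39 and 0.54. Further pairs were near 0 or negative. The range of r over all features was not computed, so a likeness particular to the APOBEC3 genes is not shown. The libraries share animals and time points, and r is given only as a description. *MX2* and *TRIM22* had r = 0.83 with Z15303 and −0.39 without it, so that their likeness rested on that animal. *BST2* and *TRIM22* went opposite ways, with r = −0.58 and, without Z15303, −0.85.

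Outside the members, the gene most like *MX2* was *MX1* (r = 0.95 over 15 libraries, 0.85 over 12 without Z15303), followed by *TMCO4* (0.93 and 0.43) and *IFI44L* (0.92 and 0.46). The last pair therefore resembled *MX2* mainly through Z15303. *APOBEC3D* was most like *CSF1*, *IL2RB* and *SERPINB9* (0.92, 0.92 and 0.90, and 0.85 for each without Z15303), which encode a cytokine, a receptor subunit of NK and T cells and an inhibitor of granzyme B. *APOBEC3C* was most like ENSMNEG00000008461 (0.92), *LAG3* (0.91 both with and without Z15303), an inhibitory receptor of activated T and NK cells, and *KAZN* (0.91 and 0.96). *APOBEC3G* was most like *CABIN1* (0.97), *SUGP1* and *EPN2* (0.90 each), and *APOBEC3H* like *LIG1*, a DNA ligase (0.96), *FRMD4B* (0.95) and *NEURL1* (0.94). *ZC3HAV1* was most like *CMTR1*, which methylates mRNA caps (0.95), *ZDHHC5* and *PPIP5K1* (0.95 each), and *TRIM22* like *TMED10* (0.95), *GCLC* and ENSMNEG00000010678 (0.94 each). *SERINC5* was most like *ABCB10* (0.92), *TNKS1BP1* (0.90) and *DDX54* (0.89), and *BST2* like ENSMNEG00000038707, ENSMNEG00000027314 and *NOP10* (0.94, 0.93 and 0.93).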

How the data were processed

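RNA from PBMCs of 5 animals at 3 time points was sequenced after SMART-Seq v4 amplification and Nextera XT library preparation. The authors aligned reads to the pig-tailed macaque genome of Ensembl with STAR 2.7.9a and deposited raw counts of reads per gene, neither normalized nor filtered. SMART-Seq does not mark strand, so reads of antisense partners cannot be told apart. Animal and time point came from the labels.

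The counts were analysed in R 4.3.3 with edgeR 4.0.16: TMM scaling, filterByExpr (minimum count 10) and the quasi-likelihood F test on all 15 libraries with time point as the only term, with Benjamini-Hochberg adjustment over all 12880 tested features and a threshold of 0.05. Log2 CPM used a prior count of 2. A second fit took the animal as a block, since the labels give the same animals at each time point and libraries of 1 animal deviated together (mean r of 0.55 over 15 pairs, against −0.14 over 60 pairs of different animal and time point). The biological coefficient of variation was 29.3% without and 16.9% with the block. DESeq2 1.42.0, other scalings and filters, and leaving out each animal were alternatives. The scripts were tested on simulated data. Without the block, *p*-values set a change against the spread over all libraries, taken as independent although libraries of 1 animal deviated together. With the block they set it against the spread left once animal and time point are taken out. Both rest on 5 animals, and 95% intervals are those of the fits.

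The members and gene lists were chosen with earlier results of these data known. Every member was named. From the other lists, genes with an unadjusted *p* under 0.05 in either fit were named for each comparison, otherwise the 2 of largest absolute log2 fold change. *MX1* and *SAMHD1* were named beyond this rule, after their values were seen. The 3 most alike features per member were those of highest Pearson's r of log2 CPM centred within animal. The gene table at hand matched 3 of the 9 members by symbol, so gene lengths were not used. Sequences were not analysed here, and results for items withheld for evaluation are not reported here.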

Additional observations from a re-analysis of the deposited data

Results flagged for a closer look

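Of 54 groups of 5 values examined (CPM of each factor at each time point, and its within-animal log2 changes), 5 had a single animal far from the other 4, with a gap over 0.71 of the range. Chance alone gives about 1 in 20 groups.

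In Z15303, *MX2* changed by −1.33 on the log2 scale from pre-treatment to week 18, against −0.05 to 0.11 in the other animals. *TRIM22* was at 225 CPM in the same animal at week 12, against 306 to 330.04 CPM. *APOBEC3H* changed by −0.58 in Z15303 from pre-treatment to week 12, against 0.06 to 0.24.

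The other two cases were changes from week 12 to week 18. *MX2* changed by 0.22 in Z13076, against −0.15 to −0.11 in the other animals. *APOBEC3G* changed by 0.31 in Z15408, against −0.13 to −0.01.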

How the results depend on the processing

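The count of members passing an adjusted *p* of 0.05 stayed at 0 in each comparison with the animal as a block, with DESeq2's Wald test with or without the block, with DESeq2's size factors, without TMM, with no low-count filter, with a stricter one (50 in place of 10), and with any animal left out. The smallest adjusted *p* of any member in any of these fits was 0.505. Of 189 member fold changes recomputed without leaving out an animal, 180 kept their direction and 9 near 0 turned. *SERINC5* at week 12 became 0.00137 with DESeq2, 0.00141 with its size factors in edgeR, 0.000845 without a filter and 0.00462 with a minimum count of 50. With the block *APOBEC3D* became −0.00031 at week 12, −0.0131 at week 18 and −0.0128 for week 18 vs. week 12, and in DESeq2 with the block it became −0.00900 at week 18 and −0.0140 for week 18 vs. week 12. The cause was not tested. With an animal left out, with or without the block, 57 of 270 values turned and 0 were called. For those that turned, the log2 fold changes at week 12 vs. pre-treatment ranged from −0.353 to 0.104 (*MX2*), −0.0742 to 0.126 (*SERINC5*), −0.192 to 0.107 (*ZC3HAV1*), −0.00256 to 0.194 (*APOBEC3H*), −0.153 to 0.0665 (*APOBEC3G*) and −0.0715 to 0.129 (*APOBEC3D*). At week 18 vs. pre-treatment they ranged from −0.360 to 0.0396 (*MX2*), −0.0236 to 0.230 (*BST2*), −0.233 to 0.0215 (*TRIM22*), −0.0650 to 0.227 (*SERINC5*), −0.0702 to 0.0222 (*APOBEC3H*), −0.211 to 0.116 (*APOBEC3G*), −0.125 to 0.117 (*APOBEC3D*) and −0.00483 to 0.222 (*APOBEC3C*). For week 18 vs. week 12 they ranged from −0.175 to 0.00358 (*BST2*), −0.00985 to 0.0347 (*TRIM22*), −0.0311 to 0.1496 (*SERINC5*), −0.176 to 0.0109 (*APOBEC3H*), −0.0745 to 0.0729 (*APOBEC3G*), −0.120 to 0.101 (*APOBEC3D*) and −0.0683 to 0.105 (*APOBEC3C*). The block changed no call of a member. The number of members that differed between animals, 2, was 4 without a filter (adding *ZC3HAV1* and *APOBEC3G*) and 3 with DESeq2's likelihood-ratio test or without TMM. It was 2 with a minimum count of 50, and 1 to 3 with an animal left out. The share of all features under these alternatives was not computed, so these counts cannot be set against other genes. This test and its alternatives were chosen after seeing the data. The class medians moved by less than their SD over animals under each alternative run, including *ZC3HAV1* and *APOBEC3G* counted as interferon-induced. That SD includes Z15303 and was 0.39 and 0.38 for the interferon-induced factors at week 12 and week 18 vs. pre-treatment. It is thus a weak check on leaving out Z15303, without which their median changed sign at week 12 (from −0.15 to 0.07) and at week 18. Moving *TRIM5* between the classes was not run, as *TRIM5* was not analysed here. The shallowest libraries, those of Z15303, held the fewest counts of a member (111 for *APOBEC3D* at week 12).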
